A study of Mus musculus with 2 samples.

Results

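The genes described are 49 genes of DNA replication and S phase, chosen by name for their known function, out of 55536 genes in the tables. Earlier results of these data were known when the genes were chosen. They cover 10 roles, from the marking of replication origins to the supply of nucleotides and histones, and they lie on 14 chromosomes, with 8 of them on chromosome 5. Each symbol matched 1 gene, and all 49 were detected in both libraries. The cells were primary neutrophils from the spleen of virgin adult male mice at 65 days. They were B6CASTF1/J animals, that is, F1 offspring with C57BL/6 as the mother's strain and CAST/EiJ as the father's. There is 1 group of 2 total RNA libraries, called replicate 1 and replicate 2, and 300 ng of RNA went into each, with ERCC RNA spiked in. Both carry the same donor identifier, so separate animals are not shown and their spread may be technical. With 1 group there is no comparison between conditions and no test, and what follows describes levels and the spread of the libraries.

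DNA replication starts when the origin recognition complex, Cdc6 and Cdt1 load the MCM helicase onto DNA in G1. Cdc45 and the GINS complex then turn the loaded helicase on, and polymerases, a sliding clamp and its loader copy both strands in S phase. In the neutrophil lineage, division is known to stop after the early precursor stages, and mature neutrophils are non-dividing cells. E2F factors drive many of these genes at the G1/S boundary, while many mitotic genes are known to carry a different promoter element, the CHR.

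The promoter windows below are shown because they hold an E2F word in members of high level, and in Cdc6 and the gene for an E2F factor itself. Each window runs from 250 bases before to 50 bases after the RefSeq gene start in GRCm38.p6, written 5′ to 3′ on the gene's strand. Capitals mark TTTCCCGC, TTTGGCGC, TTTCGCGC or TTTGCCGC on either strand, and overlapping words form 1 longer run of capitals.
Cdc6 promoter, chr11:98907901-98908200, strand +: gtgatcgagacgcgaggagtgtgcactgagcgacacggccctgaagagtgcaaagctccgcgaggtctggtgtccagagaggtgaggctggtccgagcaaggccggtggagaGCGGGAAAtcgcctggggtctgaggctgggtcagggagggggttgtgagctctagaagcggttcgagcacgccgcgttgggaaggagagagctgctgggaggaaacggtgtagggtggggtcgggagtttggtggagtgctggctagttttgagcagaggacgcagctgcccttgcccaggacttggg
Mcm3 promoter, chr1:20820263-20820562, strand -: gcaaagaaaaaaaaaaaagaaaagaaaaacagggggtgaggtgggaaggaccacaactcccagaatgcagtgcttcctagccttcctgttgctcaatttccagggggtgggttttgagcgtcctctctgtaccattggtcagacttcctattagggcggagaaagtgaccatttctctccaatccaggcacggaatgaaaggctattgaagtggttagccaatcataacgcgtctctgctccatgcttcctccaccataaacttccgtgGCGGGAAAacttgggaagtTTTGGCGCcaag
Mcm5 promoter, chr8:75109259-75109558, strand +: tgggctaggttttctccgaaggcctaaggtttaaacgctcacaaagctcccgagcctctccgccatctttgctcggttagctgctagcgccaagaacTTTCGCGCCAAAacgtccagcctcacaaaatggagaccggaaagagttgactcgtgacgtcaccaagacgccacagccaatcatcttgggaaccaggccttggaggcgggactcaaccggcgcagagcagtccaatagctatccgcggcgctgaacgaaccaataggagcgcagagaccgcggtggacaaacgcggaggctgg
Mcm6 promoter, chr1:128359656-128359955, strand -: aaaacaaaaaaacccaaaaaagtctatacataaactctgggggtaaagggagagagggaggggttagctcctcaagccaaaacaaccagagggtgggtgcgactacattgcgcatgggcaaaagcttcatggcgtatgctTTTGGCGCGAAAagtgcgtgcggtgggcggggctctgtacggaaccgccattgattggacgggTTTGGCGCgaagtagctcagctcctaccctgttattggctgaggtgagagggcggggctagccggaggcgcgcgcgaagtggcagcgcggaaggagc
Mcm7 promoter, chr5:138171834-138172133, strand -: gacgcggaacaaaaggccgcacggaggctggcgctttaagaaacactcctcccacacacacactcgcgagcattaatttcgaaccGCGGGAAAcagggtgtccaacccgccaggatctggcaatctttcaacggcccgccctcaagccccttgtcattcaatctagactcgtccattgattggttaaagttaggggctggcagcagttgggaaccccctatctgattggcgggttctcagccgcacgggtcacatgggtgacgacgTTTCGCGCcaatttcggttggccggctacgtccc
E2f2 promoter, chr4:136172024-136172323, strand +: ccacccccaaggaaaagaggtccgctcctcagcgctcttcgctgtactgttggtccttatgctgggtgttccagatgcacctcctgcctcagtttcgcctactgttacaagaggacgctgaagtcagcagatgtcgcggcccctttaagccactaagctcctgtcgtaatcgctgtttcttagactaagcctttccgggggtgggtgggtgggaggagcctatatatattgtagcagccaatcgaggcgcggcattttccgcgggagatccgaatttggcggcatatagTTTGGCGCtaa
In Mcm5 and in the farther site of Mcm6, a pair of these words overlapped. In Mcm3 both words lay downstream of the start, at 20 and 39 bases, and in E2f2 the single word lay at 40 bases downstream. A match in these letters is a description of the sequence and not a shown binding site.

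Promoter windows were matched by symbol for 41 of the 49 members, and not for Mcm4, Gins1, Gins2, Gins4, Prim2, Pole, Rfc2 and Ccne2. An E2F word stood in 15 of the 41, or 36.6%, against 3.29% of 17492 protein-coding genes. The 15 were Orc1, Cdc6, Cdt1, Mcm3, Mcm5, Mcm6, Mcm7, Gins3, Pola1, Pold1, Pold3, Pole2, Rfc3, Lig1 and E2f2. They included 3 of the 4 licensing genes and both the lowest member of all (Orc1) and the second highest (Mcm7). Their mean TPM had a median of 18 and ran between 2.44 and 45.1, and the 26 members without the word had a median of 14.1 and ran between 5.2 and 77.9, so the ranges overlapped. None of the 5 nucleotide supply genes held one of these words. Other replication genes, a list of 46 genes with 36 windows, held an E2F word in 33.3% of windows. In the mitosis and G2/M list 1 of 25 windows, or 4.00%, did.

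A CHR word, searched as TTTGAA or TTCGAA on either strand, stood in 9 of the 41 member windows, or 22%, against 20.2% of protein-coding genes. The share among the members was thus near that of protein-coding genes. In the mitosis and G2/M list 19 of 25 windows, or 76.0%, held it. CCAAT, the CCAAT box, stood on either strand in 61.0% of member windows, in 80.0% of mitosis windows and in 42.3% of windows of protein-coding genes. No E2F word contains a CHR word or CCAAT.

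**Figure D1:**
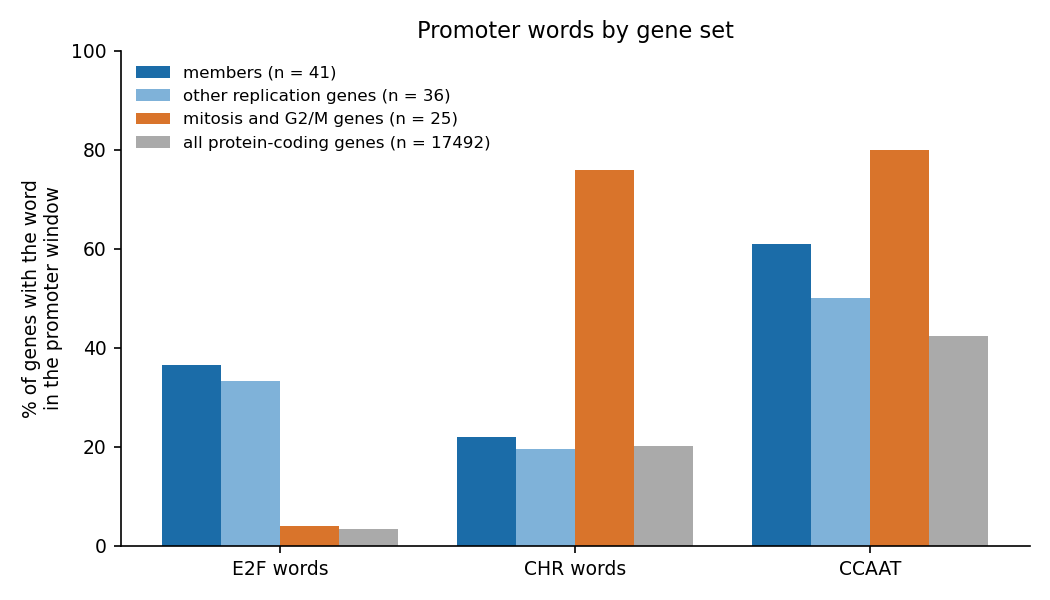
Share of genes (y axis, percent) whose promoter window holds an E2F word, a CHR word or CCAAT, for members, other replication genes, mitosis and G2/M genes and all protein-coding genes. Members stand at 36.6% for E2F words against 3.29% of protein-coding genes, and at 22% for CHR words against 76.0% of the mitosis and G2/M list.

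Levels are the deposited gene TPM in RSEM layout, which scales counts by effective length to allow comparison between genes. Such a comparison depends on how reads were assigned to transcripts, and several orders given below turned on protein-coding transcripts alone. The median member stood at 13.5 ± 1.60 TPM (SD of both library medians, n = 2), with 12.4 TPM in replicate 1 and 14.6 TPM in replicate 2. It lay at the percentile 70.3 of 14633 detected protein-coding genes in replicate 1 and at 70.1 in replicate 2. The count of members at or above 10 TPM in both libraries was 29 of 49, where 33.5% of detected protein-coding genes reached that level. A further 18 members were under 10 TPM in both libraries, and 2, Pola2 and Rfc5, lay on either side. The highest member by mean TPM, Pcna, stood 32.0-fold above the lowest, Orc1. In bulk RNA, fewer cells that express a gene and less RNA per cell cannot be told apart.

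**Figure D2:**
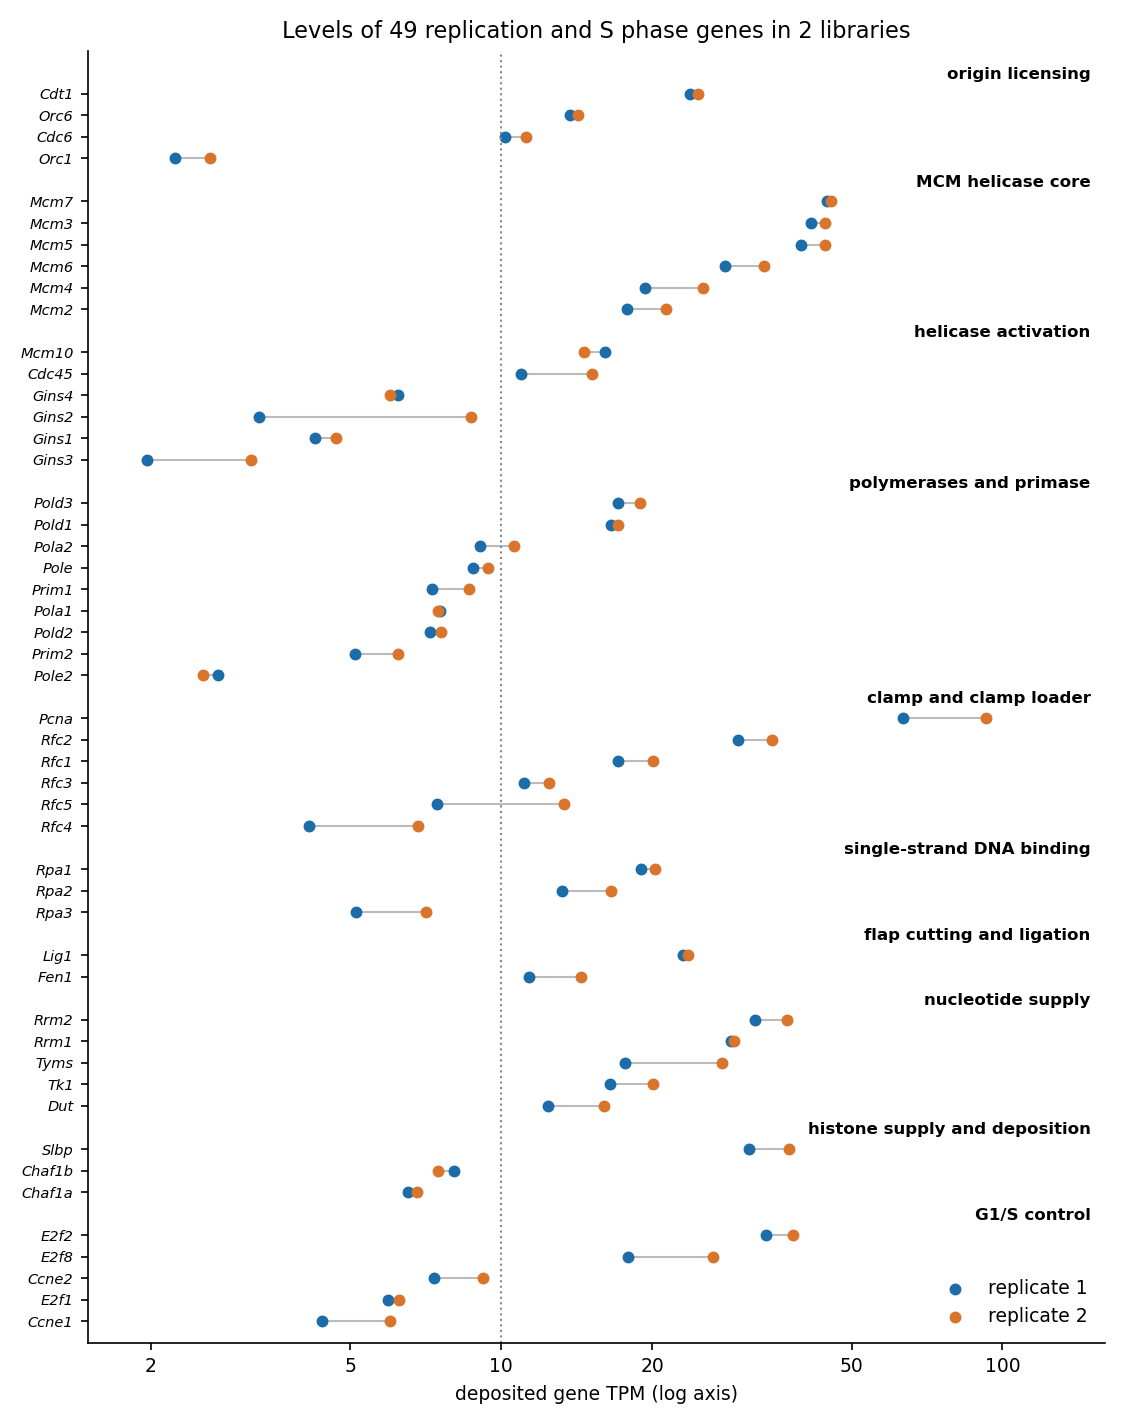
Deposited gene TPM (x axis, log scale) of all 49 members in replicate 1 and replicate 2, grouped by role, with a dotted line at 10 TPM. The 6 MCM core genes and the 5 nucleotide supply genes all lie above the line, whereas 4 of the 6 helicase activation genes lie below it in both libraries.

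Origin licensing was carried by 4 genes of unequal level. Cdt1, which brings the MCM helicase to origins, had 23.9 TPM in replicate 1 and 24.8 TPM in replicate 2. Orc6, the smallest subunit of the origin recognition complex, had 13.8 and 14.2 TPM. Cdc6, the ATPase that works with Cdt1 in loading, had 10.2 and 11.2 TPM. Orc1, the large ATP-binding subunit of the complex, had 2.24 and 2.63 TPM from 116 and 96 expected counts. Cdt1 stood 10.6-fold above Orc1 in replicate 1 and 9.41-fold above it in replicate 2. The order Cdt1, Orc6, Cdc6, Orc1 was the same in both libraries, and no neighbours in it overlapped. When only transcripts annotated as protein coding were summed, an alternative chosen after seeing the data, Orc6 (7.56 and 8.93 TPM) was below Cdc6 (8.81 and 10.1 TPM). The other ORC subunits were measured in the list of other replication genes and are given with it below.

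The 6 MCM core genes, whose products form the ring of the replicative helicase, were the role with the highest median, 36.3 ± 3.59 TPM (SD of both library medians, n = 2). Mcm7 had 44.6 TPM in replicate 1 and 45.5 TPM in replicate 2. Mcm3 had 41.5 and 44.4 TPM, and Mcm5 had 39.6 and 44.2 TPM. Mcm6 followed with 28.0 and 33.4 TPM. Mcm4 had 19.4 and 25.2 TPM, and Mcm2 had 17.9 and 21.3 TPM. The order was the same within each library, but Mcm3 and Mcm5 overlapped between libraries, as did Mcm4 and Mcm2. Although the 6 proteins occur once each in the ring, the highest gene stood 2.50-fold above the lowest in replicate 1 and 2.13-fold in replicate 2. In the kallisto quantification Mcm3 was lower, with 29.8 and 34.1 TPM, and fell behind Mcm5 with 38.2 and 45.5 TPM, and the ratio of highest to lowest was 2.84 and 2.53. On protein-coding transcripts alone Mcm5 led the core in both libraries, with 28.7 and 35.7 TPM, above Mcm7 with 24.8 and 28.6 TPM, and it also led by kallisto, with 28.1 and 34.8 TPM against 27.7 and 29.6 TPM.
Mcm7 (chr5:138164583-138172422 in mm10, minus strand) had fractional expected counts, 1604.63 and 1584.88, which shows that some of its reads were divided among several sequences. It overlaps Ap4m1 and Cops6 on the opposite strand.

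**Figure D3:**
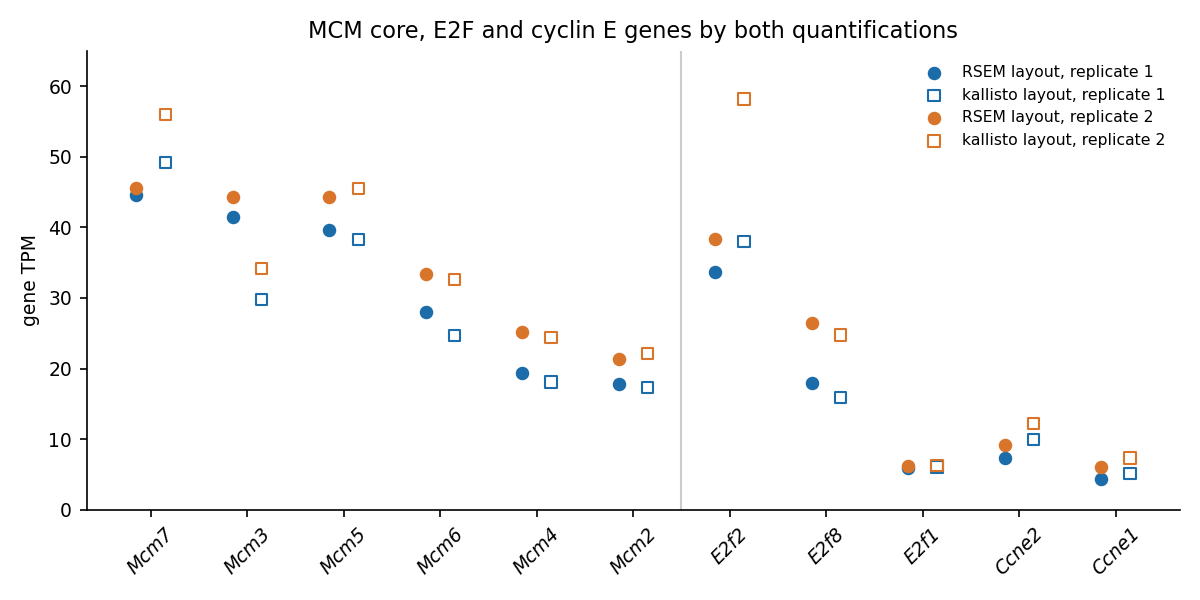
Gene TPM (y axis) of the MCM core, E2F and cyclin E genes in replicate 1 and replicate 2, with filled circles for the RSEM layout and open squares for the kallisto layout. Mcm7 leads the MCM core at gene level in both quantifications, though not on protein-coding transcripts alone, and E2f2 lies between 33.7 and 58.2 TPM while E2f1 lies at about 6 TPM.

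The helicase activators were lower than the core, with a median of 6.30 ± 1.49 TPM (n = 2). Mcm10, a factor that acts with the assembled helicase, had 16.1 TPM in replicate 1 and 14.6 TPM in replicate 2, and Cdc45 had 11.0 and 15.2 TPM. Those 2 overlapped, and at gene level they were the activators at or above 10 TPM in both libraries. On protein-coding transcripts alone neither was, with Mcm10 at 1.99 and 4.57 TPM and Cdc45 at 9.6 and 12.8 TPM. Mcm10 was then below Gins4, whose coding and gene levels were the same. The 4 GINS genes, whose products form 1 complex, were all under 10 TPM. Gins4 had 6.24 and 5.99 TPM, Gins1 had 4.25 and 4.69 TPM, and Gins3 had 1.97 and 3.17 TPM. Gins2 had 3.29 TPM in replicate 1 and 8.72 TPM in replicate 2, although its expected counts were 121 and 142. Its range covered those of Gins1 and Gins4, so its place among them cannot be read from these libraries.

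The 9 polymerase and primase genes had a median of 8.09 ± 0.76 TPM (n = 2). Pold3, an accessory subunit of polymerase delta, had 17.1 TPM in replicate 1 and 19.0 TPM in replicate 2. Pold1, the catalytic subunit of polymerase delta, had 16.5 and 17.1 TPM. Pole, the catalytic subunit of polymerase epsilon, had 8.79 and 9.41 TPM. Pold3 was below Pold1 on protein-coding transcripts alone, with 7.62 and 6.61 TPM against 8.61 and 10.1 TPM. At gene level Pold1 stood 1.88-fold and 1.82-fold above Pole. In the polymerase alpha and primase complex, which lays the primers, Pola2 had 9.08 and 10.6 TPM, Prim1 had 7.27 and 8.62 TPM, Pola1 had 7.55 and 7.47 TPM, and Prim2 had 5.12 and 6.23 TPM. Prim1 and Pola1 overlapped, and on protein-coding transcripts alone Pola2 (3.76 and 5.21 TPM) was below Prim1 (4.71 and 5.99 TPM). Pold2, the second subunit of polymerase delta, had 7.21 and 7.60 TPM. Pole2, the second subunit of polymerase epsilon, was the lowest of the role with 2.73 and 2.54 TPM and had fractional counts, 83.71 and 61.06. Its gene overlaps Gm49384 on the same strand.

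Pcna, the sliding clamp that holds polymerases on DNA (chr2:132249162-132253314, minus strand), was the highest member, with 63.3 TPM in replicate 1 and 92.6 TPM in replicate 2. It stood above every other member in both libraries, and also in both libraries by kallisto, with 58.6 and 98.7 TPM. Its expected counts, 1672.78 and 2189.67, were fractional. The 5 genes of its loader were lower and spread widely. Rfc2 had 29.7 and 34.7 TPM, and Rfc1, the large subunit, had 17.1 and 20.1 TPM. Rfc3 had 11.1 and 12.5 TPM, Rfc5 had 7.45 and 13.4 TPM, and Rfc4 had 4.14 and 6.83 TPM. At gene level Rfc4 was the lowest of the loader in both libraries and Rfc2 the highest, and Rfc3 and Rfc5 overlapped. Neither end held on protein-coding transcripts alone, where Rfc2 was the lowest with 0.85 and 1.56 TPM.

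Among the 3 subunits of RPA, the complex that coats single-stranded DNA, Rpa1 had 19.0 TPM in replicate 1 and 20.3 TPM in replicate 2. Rpa2 had 13.2 and 16.6 TPM, and Rpa3 had 5.14 and 7.09 TPM. The ratio of Rpa1 to Rpa3 was 3.70 in replicate 1 and 2.86 in replicate 2. By kallisto it was 2.71 and 1.68. Rpa3 rested on 64.0 and 75.14 expected counts, near the lowest of any member. For the joining of lagging-strand fragments, Lig1, the ligase, had 23.0 and 23.6 TPM, and Fen1, the flap endonuclease, had 11.4 and 14.5 TPM. Lig1 was the higher of the pair at gene level. On protein-coding transcripts alone the order turned in RSEM layout, with Lig1 at 5.5 and 12.3 TPM and Fen1 at 11.4 and 14.5 TPM, and did not turn by kallisto, with Lig1 at 16.9 and 21.2 TPM and Fen1 at 9.7 and 12.6 TPM.

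At gene level all 5 nucleotide supply genes were at or above 10 TPM in both libraries. Rrm2 and Rrm1 encode the small and the large subunit of ribonucleotide reductase, the enzyme that makes deoxyribonucleotides. Rrm2 had 32.0 TPM in replicate 1 and 37.2 TPM in replicate 2, and Rrm1 had 28.8 and 29.2 TPM, a ratio of 1.11 and 1.27. The count of Rrm2 in replicate 1, 1221.95, was fractional. Tyms, thymidylate synthase, had 17.7 and 27.5 TPM. Tk1, the thymidine kinase of S phase, had 16.5 and 20.1 TPM, and Dut, the dUTPase, had 12.4 and 16.0 TPM. Tyms and Tk1 overlapped between libraries, and Tk1 and Dut did not. Tk1 was below Dut on protein-coding transcripts alone, with 7.49 and 9.34 TPM against 12.4 and 16.0 TPM.

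Slbp binds the stem-loop of replication-dependent histone mRNA, and its level was 31.2 and 37.4 TPM. Chaf1b and Chaf1a, the CAF-1 subunits among the members, were lower than Slbp. CAF-1 deposits histones behind the fork. Chaf1b had 8.07 and 7.5 TPM, and Chaf1a had 6.52 and 6.79 TPM. The 70 genes with symbols that begin with Hist1h to Hist4h, chosen after their values were seen, summed to 9017 TPM in replicate 1 and 15622 TPM in replicate 2. Of these, 60 had fractional counts, so single histone genes are not given. Total RNA libraries also hold RNA without a poly(A) tail, the form that replication-dependent histone mRNA takes.

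In G1/S control, E2f2 was the highest gene, and it is known as an activator E2F. E2f2 (chr4:136172394-136196057, plus strand) had 33.7 TPM in replicate 1 and 38.3 TPM in replicate 2, from 3348 and 3207 expected counts. E2f1, another activator, had 5.95 and 6.25 TPM, so E2f2 stood 5.67-fold and 6.13-fold above it. By kallisto the ratio was 6.27 and 9.24. E2f8, an atypical repressor E2F, had 17.9 and 26.5 TPM, and its partner E2f7 had 5.28 and 6.16 TPM. E2f3, an activator named here after its values were seen, had 2.66 and 2.48 TPM. The cyclins E, which activate Cdk2, were low. Ccne2 had 7.35 and 9.19 TPM, and Ccne1 had 4.40 and 6.00 TPM, and these did not overlap. On protein-coding transcripts alone the order turned, with Ccne2 at 2.69 and 3.72 TPM and Ccne1 at 4.18 and 5.12 TPM, and it turned by kallisto too, with 2.73 and 3.48 TPM for Ccne2 and 4.69 and 5.68 TPM for Ccne1.

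Of the 46 other replication genes, 21 were at or above 10 TPM in both libraries and 22 were under it in both. Their median was 9.98 ± 0.48 TPM (n = 2), beside 13.5 ± 1.60 TPM for the members. The highest by mean gene TPM were Tfdp1, the E2F partner (47.4 and 74.1 TPM), Rnaseh2c, a subunit of ribonuclease H2 (42.5 and 59.4 TPM), and Rbbp4, a histone chaperone subunit (39.6 and 49.2 TPM). The place of Rnaseh2c is uncertain, as it had 28.8 and 34.0 TPM by kallisto. On its protein-coding transcripts alone it had 10.5 and 9.53 TPM. Cdk2, the kinase of S phase, had 28.8 and 31.6 TPM, and its partner Ccna2 had 19.2 and 26.9 TPM. Gmnn, the inhibitor of Cdt1, had 14.9 and 17.7 TPM, below Cdt1 at gene level. On protein-coding transcripts alone Gmnn was slightly above Cdt1, with 12.4 and 15.2 TPM against 11.7 and 15.0 TPM. Dbf4 had 12.9 and 14.2 TPM and its kinase Cdc7 had 5.04 and 5.65 TPM, and together they trigger the loaded helicase. Orc2 to Orc5 were named after their values were seen. Orc3 had 12.3 and 14.0 TPM, Orc4 had 10.4 and 15.7 TPM, Orc2 had 2.47 and 3.45 TPM, and Orc5 had 1.27 and 2.40 TPM. On protein-coding transcripts alone Orc3 had 2.29 and 4.38 TPM, Orc4 had 3.69 and 7.02 TPM, and Orc2 had 2.19 and 3.45 TPM. By kallisto the coding transcripts of Orc2 (5.63 and 3.33 TPM) were above those of Orc3 (2.65 and 3.66 TPM) in replicate 1 and below them in replicate 2.

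The members lay below the mitosis and G2/M list of 30 genes. The difference of medians on log2(TPM + 0.1) was -0.32 in replicate 1 and -0.43 in replicate 2, a mean of -0.38 ± 0.08 (SD, n = 2). By kallisto the mean difference was -0.17. Top2a, the topoisomerase that untangles chromosomes, had 87.6 and 97.5 TPM, Mki67 had 69.4 and 100.2 TPM, and Ube2c, an enzyme of the anaphase-promoting complex, had 26.7 and 41.8 TPM. Ttk was the lowest with 4.51 and 5.25 TPM. Cdk1, the mitotic kinase, had 26.2 and 31.6 TPM.

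Cell cycle brakes were detected beside the members. Btg1 (314 and 406 TPM), Btg2 (188 and 259 TPM) and Samhd1, which breaks down deoxyribonucleotides (186 and 254 TPM), were the highest of 21 brakes, and all 3 were above every member. The brakes as a list did not stand above the members. The median brake lay at 11.3 TPM and the median member at 12.4 TPM for replicate 1, and at 14.0 against 14.6 TPM for replicate 2. Of the 21 brakes, 12 reached 10 TPM in both libraries and 8 were under it in both. The Cdk inhibitors Cdkn2d (43.7 and 59.1 TPM) and Cdkn1b (34.5 and 44.4 TPM) stood above Cdkn1a (12.7 and 18.3 TPM), and Rb1 had 15.9 and 21 TPM. Cdkn2a had 0 counts in both libraries, and a count of 0 allows up to 3 counts in a library.

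Much of the signal of several members came from transcripts that GENCODE M21 does not annotate as protein coding, among them retained-intron and nonsense-mediated decay transcripts. For 6 members over 50% of the TPM lay on such transcripts in both libraries by both quantifications, namely Gins2, Mcm10, Pola2, Pold3, Rfc2 and Ccne2. That is 6 of 49 members, where 13.2% of 9821 protein-coding genes averaging 1 TPM or more met the same rule, so the count is near the background. The median share over the members in RSEM layout was 26.8% in replicate 1 and 28.6% in replicate 2, against 23.9% and 20.6% over those protein-coding genes. By kallisto it was 26.6% and 25.4%, against 27.5% and 24.6%, so the members were not higher in replicate 1.
Rfc2 (chr5:134581366-134601805, plus strand) had the highest share on average over the 4 measurements, with 97.1% in replicate 1 and 95.5% in replicate 2, and by kallisto 96.1% and 95.5%. Gins2 was higher in replicate 2 in RSEM layout, at 99.7%, but lay at 62.3% in replicate 1. The leading transcript of Rfc2 was Rfc2-204, a retained-intron transcript of 831 nt with 4 exons (chr5:134594119-134598328), which held 57.9% and 46.6% of the gene's TPM. The TPM of the protein-coding transcripts of Rfc2 was 0.85 and 1.56. The place of Rfc2 as the highest loader gene therefore rests on its noncoding transcripts, and on coding transcripts alone Rfc1 led with 13 and 16.6 TPM. Lat2 overlaps Rfc2 on the opposite strand.
The coding transcripts of Mcm10 held 1.99 TPM in replicate 1 and 4.57 TPM in replicate 2, of 16.1 and 14.6 TPM for the gene. Gins3, Gins4, Fen1, E2f1 and Mcm4 had shares of about 0 in both quantifications, so for them gene and coding levels were the same. E2f2 was split by method, with 2.05% and 3% in RSEM layout and 22.1% and 40.3% by kallisto, and its coding TPM was 33.0 and 37.1 in RSEM layout and 29.6 and 34.8 by kallisto. Lig1 also differed, with 76.1% and 47.8% in RSEM layout and 18.2% and 9.61% by kallisto. On coding transcripts alone the median member stood at 7.05 TPM.

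**Figure D4:**
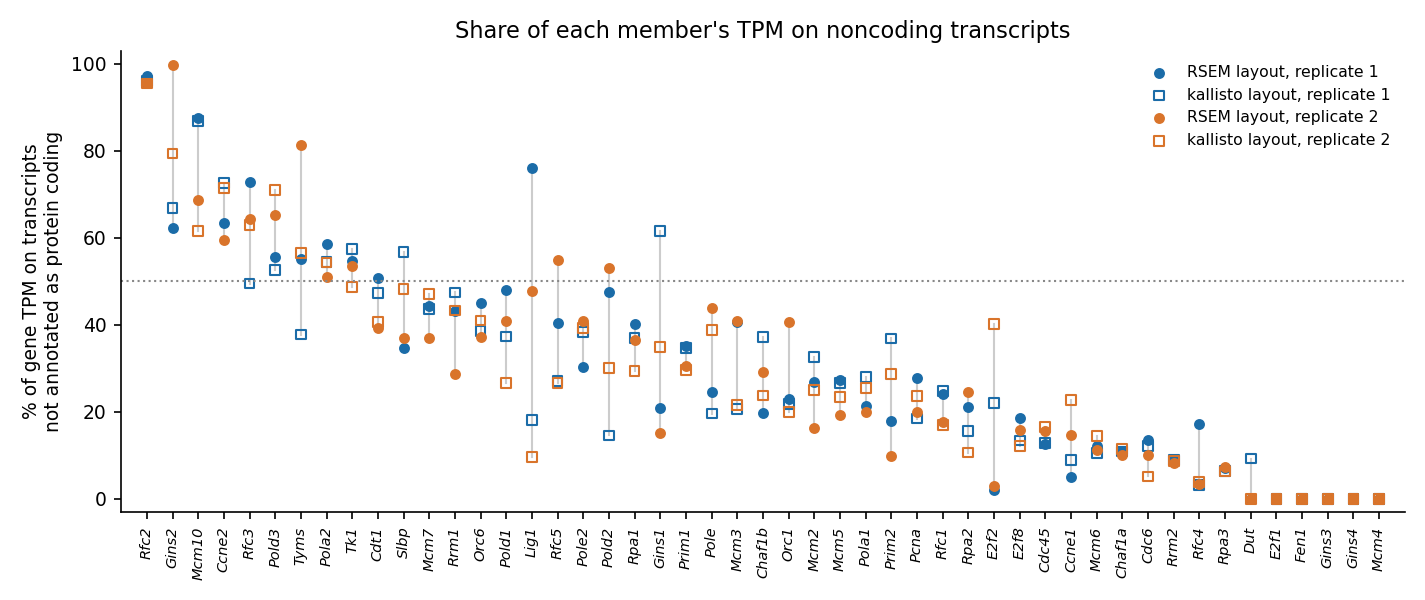
Percent of each member's TPM on transcripts not annotated as protein coding (y axis), with filled circles for the RSEM layout and open squares for the kallisto layout, in replicate 1 and replicate 2. Members run in falling order of their mean, and the dotted line marks 50%. Rfc2 stays above 95% in all 4 measurements, while Lig1 and E2f2 are spread widely by method.

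No member was over 2-fold apart between the quantifications in both libraries, with 0.1 added to each TPM, where 13.2% of 13328 genes and 4.19% of 10370 protein-coding genes were. This is a difference of size with no test and no p. A single leading transcript was shared by both libraries and both quantifications in 34 of the 49 members. The same share over all protein-coding genes is not given here, so whether 34 is many or few cannot be read.

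The libraries were close to each other in the counts of the members. On rounded expected counts with TMM scaling, the median log2 ratio of replicate 1 over replicate 2 was -0.01 over the 49 members and 0.00 over 15118 genes compared. A count of 23 members had a ratio above 0 and 26 a ratio below it, and 42 were within 0.25 of 0. The share of all genes compared within 0.25 of 0 is not given here. Only Rfc4 was over 1.5-fold apart, with 88 counts in replicate 1 and 138 in replicate 2 and a log2 ratio of -0.63. That is 1 of 49 members higher in replicate 2 and 0 of 49 higher in replicate 1, against 10.4% and 10.9% of all genes compared. The genes compared needed 10 counts in both libraries together, and no member had under 61.06 in either. Pcna (-0.37) and E2f8 (-0.33) followed, and Pole2 was farthest the other way (0.48). Of the mitosis and G2/M list 25 of 30 were higher in replicate 2, with a median of -0.16, and this difference from the members was not tested.

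The direction depends on the scaling. In deposited TPM 44 of 49 members were higher in replicate 2, with 7SL RNA at 43.8% of TPM in replicate 1 and 31.6% in replicate 2. In TPM over protein-coding genes alone 42 of 49 were higher in replicate 1. On ERCC totals, 77771 counts in replicate 1 and 47031 in replicate 2, all 49 were higher in replicate 2. The median of all genes compared moved with them, to -0.23 in deposited TPM, 0.23 in protein-coding TPM and -0.74 on ERCC totals, beside -0.22, 0.24 and -0.76 for the members. In TPM 5 members were over 1.5-fold apart, with no share over all genes at hand for this scaling. Among these, Gins2, Rfc5, Gins3 and Tyms had close counts, with log2 ratios of -0.21, -0.12, -0.10 and -0.19 on counts and -1.38, -0.83, -0.66 and -0.64 in TPM. Their effective lengths differed between the libraries, with Gins2 at 1687 nt in replicate 1 and 876 nt in replicate 2, and Rfc5 at 1933 and 1394 nt.

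**Figure D5:**
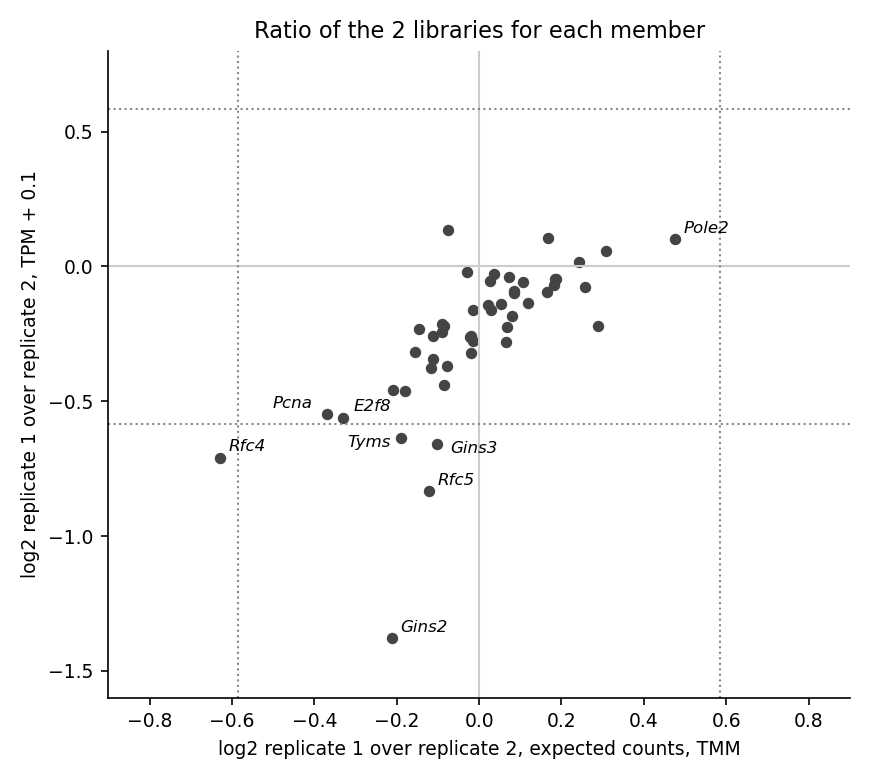
Log2 ratio of replicate 1 over replicate 2 for each member, from expected counts with TMM scaling (x axis) and from TPM with 0.1 added (y axis), with dotted lines at 1.5-fold. Only Rfc4 is past the line on counts, at -0.63, whereas Gins2 lies at -1.38 in TPM and at -0.21 on counts.

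Neutrophil genes and markers of other cells were measured beside the members, as summed TPM in replicate 1 and replicate 2. The 10 mature neutrophil genes summed to 27476 and 59430 TPM, led by S100a9, S100a8 and Retnlg, with all 10 above 10 TPM in both libraries. The list of 10 primary granule and proneutrophil genes summed to 697 and 907 TPM, with Mpo at 193 and 264 TPM and Elane at 137 and 180 TPM. B cell markers summed to 16.3 and 43.2 TPM, with 3 of 9 at or above 1 TPM in both libraries, and erythroid markers to 55.9 and 132 TPM, with 5 of 8. T and NK cell markers summed to 0.71 and 0.59 TPM, with 0 of 8 and Ncr1 at 0 counts in both. Progenitor markers summed to 41.2 and 56.1 TPM (5 of 7), and monocyte and macrophage markers to 529 and 711 TPM (7 of 10). Basophil and mast cell markers summed to 61.8 and 80.8 TPM (5 of 6), and megakaryocyte and platelet markers to 18.1 and 14.1 TPM (3 of 6). Single genes made up much of several sums. Jchain had a mean of 17.4 TPM, where the median B cell marker had 0.71 and 2.51 TPM. Hba-a1 had a mean of 44.3 TPM, where the median erythroid marker had 1.19 and 3.42 TPM. Spn had a mean of 37.8 TPM, where the median progenitor marker had 1.79 and 2.09 TPM. Ly6c2 had a mean of 312 TPM, where the median monocyte and macrophage marker had 16.4 and 28.2 TPM. Prss34 had a mean of 32.6 TPM, where the median basophil and mast cell marker had 1.80 and 2.31 TPM. On counts with TMM scaling, most B cell and erythroid markers compared, like Rfc4, were higher in replicate 2. So were most mature neutrophil genes and most monocyte and macrophage markers compared. Most megakaryocyte and platelet markers were higher in replicate 1. The part of these cells in the results was not tested.

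Some members share their surroundings with other genes. A protein-coding gene started within 1 kb on the opposite strand at 11 of 49 members, or 22.4%, against 15.0% of detected protein-coding genes. Among them, with the neighbours named after their values were seen, were Orc1 with Prpf38a (87 nt between the starts), Rpa1 with Smyd4 (109 nt), Cdc45 with Ufd1 (208 nt) and Mcm4 with Prkdc (466 nt). The levels within a pair were unequal, with Rpa1 at 19.0 and 20.3 TPM beside Smyd4 at 0.75 and 0.95 TPM, whereas Orc1 at 2.24 and 2.63 TPM stood beside Prpf38a at 14.8 and 17.2 TPM. Rfc4 overlaps Eif4a2, at 142 and 173 TPM, on the opposite strand. The library kit was directional, but the strand setting of the counting is not given in the sources used here, so the levels of overlapping genes are uncertain.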

How the data were processed

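Each library came with 3 tables, each of 1 sample. The deposited gene table holds expected counts, TPM and FPKM, made by the authors from alignments to the transcriptome (mm10, GENCODE M21), per the file headers and accompanying notes. A deposited transcript table in kallisto layout holds TPM and estimated counts from the same annotation. Which programs, versions and aligner were used is not given in the sources used here, and RSEM and kallisto name the column layouts. Deposited TPM sums to 1 total over all entries, 7SL and spike-in RNA included. The depth was 18387963 expected counts for replicate 1 and 18090108 for replicate 2. The limit of 3 counts behind a count of 0 covers counting error alone, as the reads carry no molecular identifiers.

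The members and all lists were chosen with earlier results of these data known. Levels are deposited TPM, and kallisto TPM was summed per gene. Library ratios used expected counts rounded to whole numbers plus 0.5, scaled with TMM in edgeR 4.0.16 (R 4.3.3), where a gene had 10 or more counts over both libraries, and DESeq2 1.42.0 size factors were an alternative. This step was tested on simulated data with 200 changed genes. Counts within 0.005 of a whole number were taken as whole, which held for 44 members in both libraries. Promoter windows and their coordinates are RefSeq's for GRCm38.p6. All members are named, and from each other list its 3 highest and its lowest gene, genes at 0 counts and 17 genes chosen by name, where they bear on a member. A result that this rule would name is not reported here. Ahsp, of the erythroid list, was not matched. Python 3.11.15 and pandas 2.3.3 were used.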

Additional observations from a re-analysis of the deposited data

How the results depend on the processing

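No paired analysis was possible because there is 1 group and no result comes from a test. Of 46 alternative values, 31 moved by less than the spread of the libraries (counts by less than 1.5 times), 14 moved further and 1 changed sign. The 31 are no measure of stability, as several alternatives could not move a value further. Leaving out 1 library moves a mean of both by less than their SD. TPM over protein-coding genes leaves ranks and ratios within a library as they were. The minimum counts and the minimum TPM removed no member. Over protein-coding genes alone the median member stood at 35.0 TPM, and 46 members were at or above 10 TPM in both libraries. By kallisto the median percentile was 69.8, the difference from the mitosis and G2/M list was -0.17 and the ratio within the MCM core was 2.68, against 70.2, -0.38 and 2.32. On protein-coding transcripts alone, chosen after seeing the data, the median member stood at 7.05 TPM, 18 members were at or above 10 TPM and the difference from the mitosis list was -0.74. The median log2 ratio of the libraries was -0.033 with DESeq2 size factors, -0.76 on ERCC totals and -0.22 in deposited TPM, against -0.015, and it turned to 0.24 in TPM over protein-coding genes alone, added after seeing the data. On ERCC totals 39 members were over 1.5-fold apart, and in deposited TPM 5 and in protein-coding TPM 2 were, against 1. Shares over all genes are not given for these 3 scalings, so these counts cannot be read as particular to the members. The cause of these shifts was not tested. Leaving out either library gave a median member of 12.4 to 14.6 TPM and 29 to 31 members at or above 10 TPM. It gave a difference from the mitosis list of -0.43 to -0.32 and a ratio within the MCM core of 2.13 to 2.50. Genes on few counts, such as Pole2, Rpa3 and Gins1, are the least certain.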
